A study of Rattus norvegicus with 12 samples.

Results

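The 9 genes described here make, move, sense or balance the inhibitory transmitter GABA in the central nucleus of the amygdala (CeA). They were chosen by symbol for their role, with earlier results of these data known, from the 37209 genes of the count table. They are *Gad1* and *Gad2* (synthesis), *Slc32a1* (vesicular loading), *Slc6a11* (uptake), *Abat* (breakdown), *Gabbr1* and *Gabbr2* (the GABA-B receptor), and *Slc12a2* and *Slc12a5* (chloride transport). All 9 were found in the table and all passed the filter on low counts. Poly-A RNA from 1 mm CeA punches was sequenced in wild type male Sprague Dawley rats aged 14 to 16 weeks. In the CIE group (chronic intermittent ethanol), 6 rats breathed ethanol vapor for part of every day over several weeks and were killed as the last exposure ended. In the Control group, 6 rats breathed air and were killed after their last air exposure. Each rat gave 1 library, and rats carry the numbers of their labels, 1 to 6 for CIE and 7 to 12 for Control. The sample titles end in CIE for all 12 rats, so the groups rest on the treatment and time point labels alone.

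GABA is made from glutamate by 2 decarboxylases, GAD67 and GAD65, packed into vesicles by the transporter VGAT, taken back up by plasma membrane transporters and degraded by GABA transaminase. Most CeA neurons release GABA, and the release of this transmitter in the CeA is a long-studied site of ethanol action. GABA-B receptors are G protein-coupled heteromers that dampen transmitter release and open potassium channels. Whether GABA-A receptors hyperpolarize a neuron depends on the chloride level inside it, which NKCC1 (*Slc12a2*) raises by import and KCC2 (*Slc12a5*) lowers by export.

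Total counts lay between 39082548 and 95647601 per library, and each of the 9 genes had at least 5065 counts in every rat, so counting error was small beside the spread between rats. Expression is given as CPM, counts scaled to a common library size with TMM factors. Transcript lengths were not used, so the levels of different genes are not compared with each other. The CeA markers *Prkcd* (22.7 to 46.3 CPM) and *Crh* (3.76 to 9.86 CPM) were detected in all 12 rats. The punches differed in what else they held. Summed CPM of 8 striatal projection neuron markers ran from 507 to 3595 in CIE rats and from 261 to 3981 in Control rats, and that of 8 cortical glutamatergic markers from 20.8 to 479 and from 20.4 to 174. CIE rats 2 and 4 and Control rat 10 stood apart with striatal scores above 1, so the main counts are also given without them.

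None of the 9 genes passed 5% FDR between CIE and Control. The edgeR fit called 76 of 20944 genes at that threshold (0.363%), and 0 of 9 is near this background. At a nominal p value below 0.05 the fit called 0 of 9 genes, against 8.31% of all genes. DESeq2 also gave 0 of 9 at either threshold, and limma-voom with sample quality weights gave 0 at 5% FDR and 3 at the nominal one. The share of all genes that these alternative fits called was not counted. The groups overlapped in all 9 genes, with 0 of 9 free of overlap, which was the case for 0.893% of all genes. Without CIE rats 2 and 4 and Control rat 10 the counts were 0 of 9 at 5% FDR and 0 of 9 at the nominal threshold. That fit has fewer rats, and the share of all genes it called was not counted either. Of the 9 log2 fold changes, 8 were below 0, compared with 49.7% over all genes, and the median of the 9 was -0.053. Those of *Gad1* (-0.00092) and *Slc12a5* (-0.0016) were near 0 and were above 0 in 14 and 10 of the 22 alternative fits. The 9 values come from the same libraries and are not independent.

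**Figure D1:**
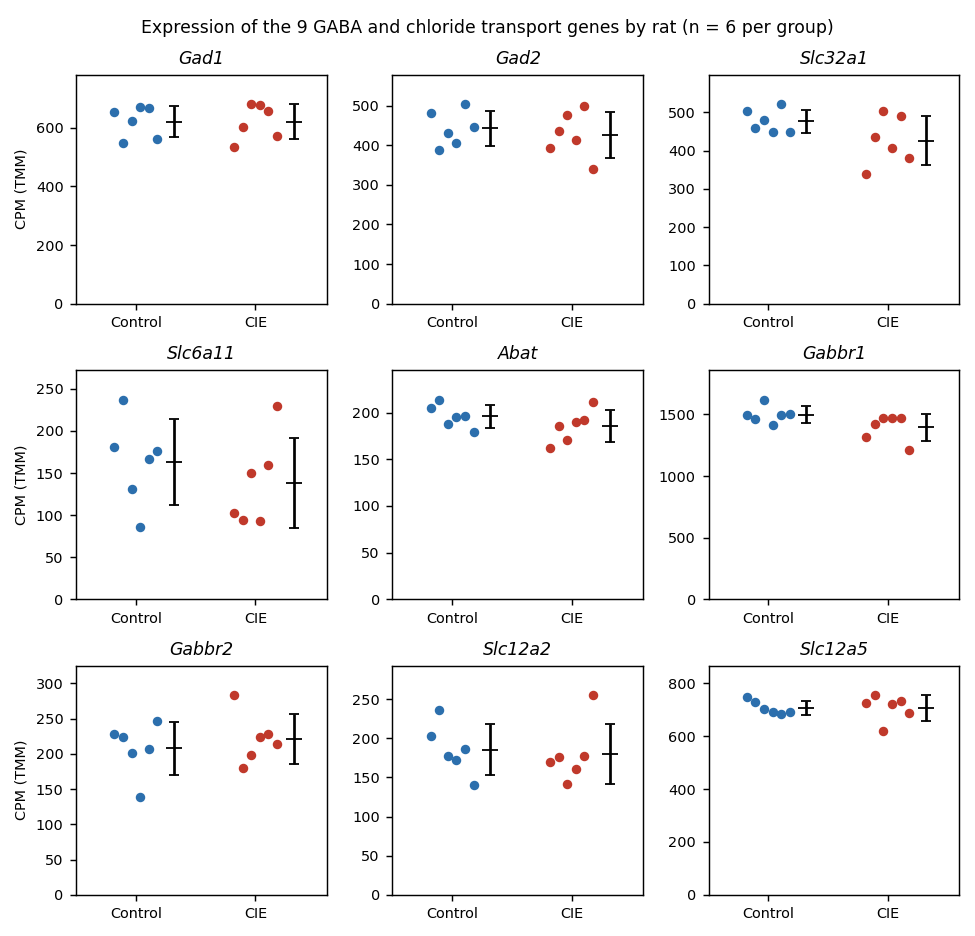
Expression of the 9 genes in each rat, in CPM on an axis that starts at 0, with Control rats in blue and CIE rats in red and the mean and SD (n = 6) beside each group. The groups overlap in every panel. *Slc12a5* spans 618 to 754 CPM over the 12 rats, whereas *Slc6a11* spans 85.3 to 237 CPM.

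*Gad1* encodes GAD67, which supplies most of the basal GABA of a neuron. It was at 535, 630 and 680 CPM (lowest, median and highest rat) in the CIE group and at 548, 640 and 671 CPM in the Control group. The ranges lay almost on top of each other. The means were 621 ± 60.2 CPM (SD, n = 6) and 621 ± 53.9 CPM (SD, n = 6), a difference of -0.00092 on the log2 scale (SE 0.079, nominal p 0.991, FDR 0.999). The 95% interval ran from a CIE to Control ratio of 0.889 to one of 1.12.

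*Gad2* encodes GAD65, the form bound to synaptic vesicles. It was at 340, 425 and 500 CPM in the CIE group and at 389, 438 and 503 CPM in the Control group. CIE rat 6 was the lowest of all 12 rats, and the other CIE rats fell within the Control range. On the log2 scale CIE differed from Control by -0.053 (SE 0.095, nominal p 0.583, FDR 0.925), with a 95% interval of the ratio from 0.837 to 1.11.

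*Slc32a1* encodes VGAT, which fills synaptic vesicles with GABA and glycine. It was at 340, 422 and 505 CPM in the CIE group and at 448, 470 and 521 CPM in the Control group. Of the 6 CIE rats, 4 lay below every Control rat and the other 2 lay within the Control range. The means were 427 ± 63.4 CPM (SD, n = 6) and 477 ± 30.4 CPM (SD, n = 6), which is -0.16 on the log2 scale (SE 0.092, nominal p 0.103, FDR 0.701). The 95% interval of the ratio, 0.781 to 1.03, included no difference. *Slc32a1* had the smallest p value of the 9 genes, at rank 3083 of 20944. In the alternatives its nominal p value went below 0.05 without CIE rat 3 (log2 fold change -0.21), without CIE rat 5 (-0.20), in limma-voom (-0.23) and with the oligodendrocyte marker score as a covariate (-0.27), and its lowest FDR was 0.179.

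*Slc6a11* encodes GAT-3, a GABA transporter found mainly on astrocytes. It was at 93.6, 126 and 230 CPM in the CIE group and at 85.3, 171 and 237 CPM in the Control group. The highest rat had 2.78 times the level of the lowest, and both groups spanned nearly the whole of this range. The fitted difference was -0.24 on the log2 scale (SE 0.25, nominal p 0.361, FDR 0.860). The 95% interval of the ratio, 0.582 to 1.23, was the widest of the 9 genes. Without CIE rat 6, whose 230 CPM was the highest CIE value, the log2 fold change was -0.44 (nominal p 0.0800, FDR 0.613), and without Control rat 10 it was -0.36 (FDR 0.587). In limma-voom it was -0.46 (nominal p 0.0443, FDR 0.279).

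*Abat* encodes GABA transaminase, the mitochondrial enzyme that degrades GABA in neurons and glia. It was at 162, 188 and 211 CPM in the CIE group and at 179, 196 and 214 CPM in the Control group. CIE rats lay below every Control rat in 2 of 6 cases and within the Control range in the rest. The fit gave a difference of -0.081 on the log2 scale (SE 0.070, nominal p 0.266, FDR 0.822), and the 95% interval of the ratio was 0.852 to 1.05.

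*Gabbr1* encodes the subunit of the GABA-B receptor that binds GABA. It was at 1209, 1448 and 1472 CPM in the CIE group and at 1418, 1499 and 1618 CPM in the Control group. CIE rats 1 and 6 lay below every Control rat, and the other 4 lay in the lower part of the Control range. On the log2 scale the difference was -0.11 (SE 0.063, nominal p 0.115, FDR 0.712), and the 95% interval of the ratio was 0.847 to 1.02. For *Gabbr1* the nominal p value went below 0.05 in limma-voom (-0.12, nominal p 0.0469, FDR 0.285) and with the oligodendrocyte score as a covariate (-0.21, nominal p 0.0116, FDR 0.346). *Gabbr2*, whose product couples the receptor to G proteins and brings it to the cell surface, was at 179, 219 and 283 CPM in the CIE group and at 138, 215 and 246 CPM in the Control group. CIE rat 1 was above every Control rat and Control rat 10 was below every CIE rat. The fit gave a difference of 0.090 on the log2 scale (SE 0.13, nominal p 0.505, FDR 0.905), with an interval of the ratio from 0.875 to 1.30.

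*Slc12a2* encodes NKCC1, which imports chloride and in the adult brain is also expressed by glia and vascular cells. It was at 141, 173 and 255 CPM in the CIE group and at 140, 181 and 236 CPM in the Control group. CIE rat 6 alone reached 255 CPM, and the other CIE rats did not go above 177 CPM. The fit gave a difference of -0.044 on the log2 scale (SE 0.14, nominal p 0.756, FDR 0.958), with an interval of the ratio from 0.787 to 1.19, and without CIE rat 6 it was -0.17 (nominal p 0.160, FDR 0.732).

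*Slc12a5* encodes KCC2, the chloride exporter of mature neurons. It was at 618, 724 and 754 CPM in the CIE group and at 682, 697 and 749 CPM in the Control group. CIE rat 3 lay below every Control rat, CIE rat 2 lay above every Control rat, and the other 4 lay within the Control range. The means were 707 ± 48.3 CPM (SD, n = 6) and 707 ± 26.1 CPM (SD, n = 6), which is -0.0016 on the log2 scale (SE 0.058, nominal p 0.978, FDR 0.997). This 95% interval was the narrowest of the 9, from a ratio of 0.916 to one of 1.09.

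**Figure D2:**
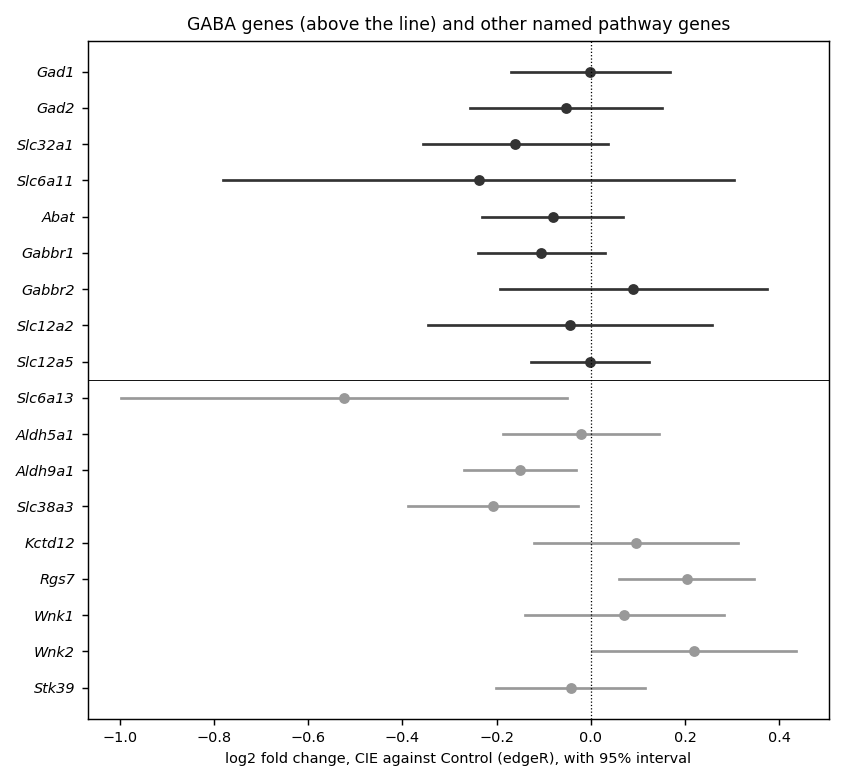
Log2 fold changes of CIE against Control with 95% intervals from the edgeR fit (n = 6 per group), for the 9 GABA genes in black and 9 other named genes of the pathway in grey. All 9 black intervals cross 0, and the widest is that of *Slc6a11*, from -0.78 to 0.30. The grey intervals that do not reach 0 are those of *Slc6a13*, *Aldh9a1*, *Slc38a3*, *Rgs7* and *Wnk2*, none of which passed 5% FDR.

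The 9 genes differed in how far they varied between rats of one group. For each, the pooled SD of log2 CPM was set beside those of all genes within 0.5 log2 units of its mean level. *Slc12a5* had an SD of 0.081, and only 5.81% of 155 such genes varied less. *Gabbr1* had an SD of 0.094 and *Abat* one of 0.11, both below the medians of 0.15 and 0.14 of their windows. *Gad1* (0.14), *Slc32a1* (0.17) and *Gad2* (0.17) were close to the medians. *Gabbr2* (0.26) and *Slc12a2* (0.27) varied more than 83.3% and 85.7% of genes of like level. The SD of *Slc6a11* was 0.51, and 98.1% of 1405 genes of like level varied less.

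Ratios of paired genes within a library do not depend on library scaling, and 5 of them were compared with two-sided exact permutation tests. The ratios compare CPM values and are not ratios of molecules. *Slc32a1* to *Gad1*, the vesicular transporter relative to the main synthetic enzyme, was 0.686 ± 0.0601 (SD, n = 6) in CIE rats and 0.770 ± 0.0568 (SD, n = 6) in Control rats. Of the CIE rats, 3 lay below every Control rat and 0 above. The difference of -0.17 in log2 ratio had an exact permutation p of 0.0368, which did not pass after adjustment over the 5 ratios (adjusted p 0.184). Without Control rat 10, whose ratio of 0.667 was the lowest of its group, the difference was -0.21 with an exact permutation p of 0.00649 (adjusted p 0.0325). That rat had the highest striatal (2.36) and cortical glutamatergic (1.02) marker scores of the Control group. What part the content of the punch has in the ratio was not tested. With each other rat left out the adjusted p missed 0.05. Among these fits the unadjusted exact permutation p was below 0.05 only without CIE rat 2 (0.0368), CIE rat 3 (0.0325) or CIE rat 5 (0.0325). It went up to 0.0758 without CIE rat 4.

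None of the other 4 ratios had an exact permutation p below 0.05. *Gad1* to *Gad2* was 1.47 ± 0.153 (SD) in the CIE group and 1.41 ± 0.135 (SD) in the Control group (exact permutation p = 0.5). *Gabbr1* to *Gabbr2* was 6.45 ± 1.18 against 7.45 ± 1.53 (exact permutation p = 0.240), a log2 difference of -0.21. *Slc12a5* to *Slc12a2*, the neuronal exporter relative to the importer, was 4.04 ± 0.668 against 3.90 ± 0.610 (exact permutation p = 0.747). In the CIE group 5 of the 6 rats lay between 4.13 and 4.51, and CIE rat 6 lay apart at 2.70. *Abat* to *Gad1* was 0.301 ± 0.0392 against 0.318 ± 0.0369 (exact permutation p = 0.396). Among the Control rats, rat 8 lay apart at 0.390.

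**Figure D3:**
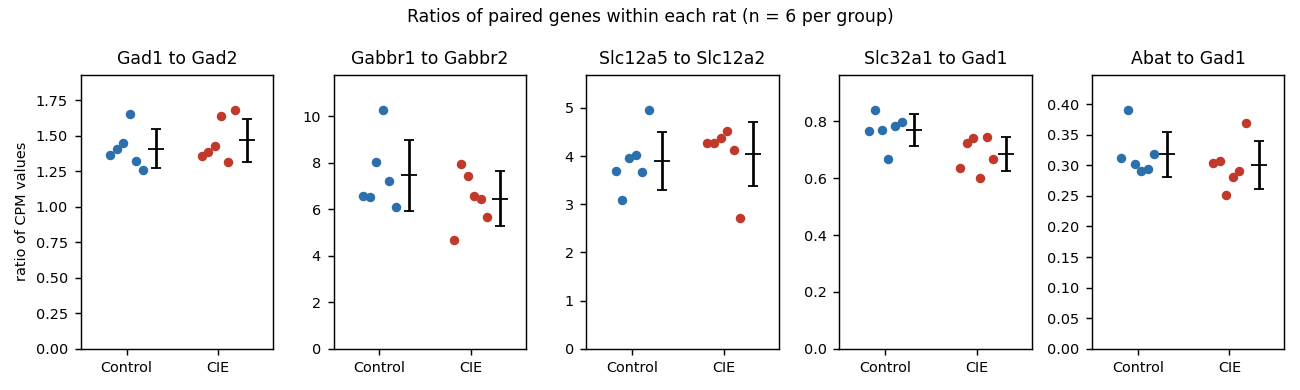
Ratios of CPM values of paired genes in each rat, on axes that start at 0, with Control rats in blue and CIE rats in red and the mean and SD (n = 6) beside each group. The panel of *Slc32a1* to *Gad1* shows 3 CIE rats below all Control rats. In the panel of *Slc12a5* to *Slc12a2*, CIE rat 6 lies alone at 2.70.

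A punch mixes cell types, and in bulk RNA fewer cells of a type and less RNA per cell cannot be told apart. The 9 genes were therefore read beside 4 marker scores over the 12 rats, each the mean over a marker list of log2 CPM centred per gene. Of the 36 pairs of a gene and a score, 2 passed 5% FDR. Gene and score come from the same library, so they share its scaling.

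*Slc6a11* was lower in the rats with more striatal projection neuron transcripts, such as *Drd1*, *Adora2a* and *Ppp1r1b*. Pearson's r was -0.86 (permutation test, p = 9.0e-05, adjusted 0.0032) and Spearman's rho was -0.90 (permutation test, p = 0.0001, adjusted 0.0036). The relation was present in both groups, with r = -0.73 within the CIE group and -0.97 within the Control group, and with the group means removed r was -0.85. Leaving out the extremes of the score (CIE rat 2 and Control rat 10) gave an r of -0.81 (permutation test, p = 0.0048, adjusted 0.173). *Slc6a11* was at 85.3 to 94.2 CPM in the 3 rats with striatal scores above 1 and at 102 to 237 CPM in the other 9. With the striatal score as a covariate, a fit added after the values were seen, the log2 fold change of CIE against Control was -0.019 (SE 0.14, nominal p 0.893, FDR 0.976), against an SE of 0.25 without it. With the cortical or the oligodendrocyte score in its place it was -0.011 (SE 0.24) or -0.018 (SE 0.30), so 3 different scores each took the value close to 0.

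*Slc32a1* was lower in the rats with more cortical glutamatergic transcripts, such as *Slc17a7*, *Neurod6* and *Tbr1*. Pearson's r was -0.85 (permutation test, p = 0.00038, adjusted 0.0068) and Spearman's rho was -0.87 (permutation test, p = 0.00056, adjusted 0.010), with r = -0.83 within each group. Leaving out the extremes of that score (CIE rats 1 and 4) gave an r of -0.74 (permutation test, p = 0.0117, adjusted 0.211). Of the 8 cortical markers, 3 were higher in CIE rats at a nominal p value below 0.05 (4.0% of all genes) and 0 passed 5% FDR, and the median log2 fold change of the 8 was 1.55. CIE rats 3, 5 and 6 had cortical scores of -1.54, -1.10 and 0.39, within the range of the Control rats. In CIE rats 3 and 5 *Slc32a1* was also within its Control range, but in CIE rat 6 it was below every Control rat, at 381 CPM. CIE rats 1, 2 and 4 had cortical scores of 2.34, 1.65 and 1.65, above the highest Control score of 1.02, so group and score are partly confounded. With the cortical score as a covariate the log2 fold change of *Slc32a1* was -0.056, against -0.16 without it. What part the cortical content of the punch has in the *Slc32a1* level was not tested. For *Gad1* and *Gad2* the correlations with the cortical score were -0.39 and -0.56 and did not pass (permutation test, adjusted p 0.604 and 0.253; rho -0.31 and -0.55).

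*Slc12a2* was higher in the rats with more myelinating oligodendrocyte transcripts, such as *Mbp* and *Mog*. Over all 12 rats r was 0.73 (permutation test, p = 0.0060, adjusted 0.072) and rho was 0.64 (permutation test, p = 0.027, adjusted 0.197). It was 0.95 within the CIE group and 0.80 within the Control group, and with the group means removed it was 0.89 (permutation test, adjusted p 0.0056). Of 10 oligodendrocyte markers, 9 were lower in CIE rats at a nominal p value below 0.05 (4.31% of all genes) and 0 at 5% FDR (0.363% of all genes), and their median log2 fold change was -0.58. Their summed level ranged from 5718 to 13866 CPM in the CIE group and from 8759 to 16399 CPM among Control rats, and none of the 10 was at 0. With the oligodendrocyte score as a covariate the log2 fold change of *Slc12a2* changed sign, from -0.044 to 0.32 (SE 0.100, nominal p 0.0069, FDR 0.298). What part the oligodendrocyte content of the punch has in the *Slc12a2* level was not tested.

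*Gabbr2* followed the striatal score with r = -0.71 (permutation test, p = 0.0090, adjusted 0.081) and rho = -0.59 (permutation test, adjusted p 0.252), with r = -0.52 within the CIE group and -0.96 within the Control group. With the group means removed r was -0.80 (permutation test, adjusted p 0.0236), whereas without CIE rat 2 and Control rat 10 it was -0.16, so the relation rests on those 2 rats. With the striatal score as a covariate the log2 fold change of *Gabbr2* was 0.20 (nominal p 0.0425, FDR 0.450), against 0.090 without it. *Abat* followed the oligodendrocyte score with r = 0.68 (permutation test, p = 0.016, adjusted 0.112) and rho = 0.68 (permutation test, adjusted p 0.161). Of 10 astrocyte markers, 1 was higher and 3 were lower in the CIE group at a nominal p value below 0.05 (4.0% and 4.31% of all genes), with 0 at 5% FDR. Their summed level was 1975 to 2476 CPM in the CIE group and 2054 to 2396 CPM among Control rats, and none of the 9 genes passed 5% FDR against their score. *Slc6a11* had r = 0.58 with it (permutation test, p = 0.050, adjusted 0.253), 0.86 within the CIE group and 0.07 within the Control group. *Slc12a5* had r = -0.55 and rho = -0.70 (permutation test, adjusted p 0.253 and 0.161). With the cortical score *Slc6a11* had r = -0.62 (permutation test, p = 0.035, adjusted 0.211).

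**Figure D4:**
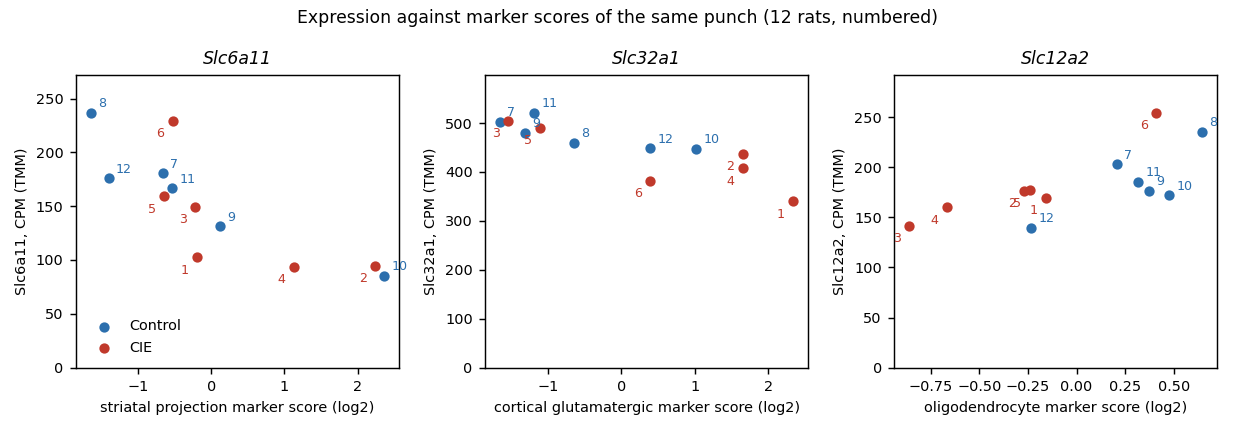
Expression in CPM (axis from 0) of *Slc6a11*, *Slc32a1* and *Slc12a2* against a marker score of the same library, in log2 units, with 1 point per rat numbered by its label (Control in blue, CIE in red). *Slc6a11* falls as the striatal score rises (r = -0.86), *Slc32a1* falls as the cortical score rises (r = -0.85), and *Slc12a2* is higher with the oligodendrocyte score (r = 0.73).

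Among the 9 genes, pairwise correlations were computed after the values were seen. Of 36 pairs, 0 passed 5% FDR by Pearson's r and 1 by Spearman's rho. *Abat* and *Slc12a2* gave r = 0.80 (permutation test, p = 0.0022, adjusted 0.053) and rho = 0.85 (permutation test, p = 0.00082, adjusted 0.030), with r = 0.75 within the CIE group, 0.97 within the Control group and 0.92 without the 2 rats farthest from the median of *Abat*. *Gad2* and *Slc32a1*, both markers of inhibitory neurons, gave r = 0.78 (permutation test, p = 0.0029, adjusted 0.053) and rho = 0.79 (permutation test, adjusted p 0.067), with r = 0.82 in either group. *Gad1* with *Gad2* gave r = 0.60 (permutation test, adjusted p 0.225).

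The sequence before the annotated start is shown for *Gad2* and *Slc32a1*, the neuronal pair that varied together most closely, and for *Slc6a11*, the gene that varied most between rats. RefSeq (GRCr8 build, which is not the build of the counts) gave such a sequence for 8 of the 9 genes. Each line holds 250 bases, 5′ to 3′ on the strand of the gene, that end at the base before the gene. They lie at chr17:89671468-89671717 (*Gad2*), chr3:167686995-167687244 (*Slc32a1*) and chr4:148853307-148853556 (*Slc6a11*), all on the plus strand. Capitals mark matches on either strand to a GC box (GGGCGG) or a CCAAT box (CCAAT).
Gad2: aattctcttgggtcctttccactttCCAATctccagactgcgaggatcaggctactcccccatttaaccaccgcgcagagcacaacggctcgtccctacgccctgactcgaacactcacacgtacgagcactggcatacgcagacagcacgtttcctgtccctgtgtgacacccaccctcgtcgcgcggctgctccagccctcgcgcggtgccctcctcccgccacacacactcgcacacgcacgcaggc
Slc32a1: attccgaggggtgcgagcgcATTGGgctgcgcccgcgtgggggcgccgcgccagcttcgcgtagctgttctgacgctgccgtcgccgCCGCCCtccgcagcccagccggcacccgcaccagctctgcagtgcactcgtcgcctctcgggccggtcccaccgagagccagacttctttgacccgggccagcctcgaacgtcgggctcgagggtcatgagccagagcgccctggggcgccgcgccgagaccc
Slc6a11: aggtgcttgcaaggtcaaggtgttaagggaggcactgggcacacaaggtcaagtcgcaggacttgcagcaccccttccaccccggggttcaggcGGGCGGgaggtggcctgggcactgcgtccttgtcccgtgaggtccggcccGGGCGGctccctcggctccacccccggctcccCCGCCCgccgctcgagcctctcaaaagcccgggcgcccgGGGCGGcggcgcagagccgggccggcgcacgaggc

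*Gad2* and *Slc32a1* each held 1 CCAAT match, which 34.0% of 33469 promoters of this length held, while *Slc6a11* held 0. *Slc6a11* held 4 GC box matches and *Slc32a1* held 1, and 30.5% of all promoters held at least 1. A TATA box (TATAAA) and a cyclic AMP response element (TGACGTCA) had 0 matches in the 3 windows, and 12.9% and 1.59% of all promoters held them. The 3 windows were rich in G and C, at 62.0% in *Gad2* and 73.6% in both *Slc32a1* and *Slc6a11*, compared with a median of 51.2% over all promoters. Matches of letters describe the sequence and do not show binding. In the GRCr8 annotation *Gabbr2* and *Slc12a5* overlap long non-coding genes, and as the strand setting of the counting is not given, reads of such transcripts cannot be told apart from those of the 2 genes.

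For each of the 9 genes the 3 most similar of 16890 other genes were found by Pearson's r of log2 CPM over the 12 rats with the group means removed. As these were the highest of many values, no test is given. *Slc6a11* was closest to *Ednrb* (r = 0.98, rho = 0.97), *Gli1* (0.97) and *Atp1b2* (0.97). *Slc12a2* was closest to *Coro6* (0.99), *Cdr2l* (0.97) and LOC102554507 (0.96), and *Gabbr2* to *Myo16* (0.97), *Jag2* (0.96) and *Slc8a1* (0.96). These 3 members, the most variable of the 9, had the highest similarities. *Slc12a5* was closest to *Flt4* (0.95), *Madd* (0.95) and *Gtf3c1* (0.93), and *Abat* to LOC102553713 (0.94), *Sec31b* (0.94) and *Tbc1d9b* (0.92). *Gad1* was closest to *Gcs1* (0.93), LOC302814 (0.91) and *Sfr1* (0.86), *Gad2* to LOC299312 (0.93), *Gpr101* (0.91) and RGD1566265 (0.91), *Slc32a1* to *Plekha3* (0.93), LOC100912008 (0.91) and RGD1306001 (0.90), and *Gabbr1* to LOC100909800 (0.92), *Cluap1* (0.90) and RGD1566386 (0.87).

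Other genes of the pathway were taken from 5 lists with 44 genes, all of them tested. None passed 5% FDR in edgeR, DESeq2 or limma-voom. At a nominal p value below 0.05 edgeR called 5 of 44 (11.4%), 2 higher and 3 lower in the CIE group, against 8.31% of all genes in either direction (4.0% higher and 4.31% lower). The median log2 fold change of the 44 genes was 0.013. The number at the nominal threshold ranged from 3 to 10 with 1 rat left out, reaching 10 without CIE rat 3 and 9 without Control rat 10. In limma-voom it was 10. For these fits the share of all genes called was not counted.

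In GABA uptake and breakdown, 2 of 6 genes were lower at a nominal p value below 0.05 and 0 were higher (4.31% and 4.0% of all genes). *Slc6a13*, which encodes GAT-2, a transporter of the meninges and vessels, was at 2.01, 3.76 and 6.73 CPM in the CIE group and at 4.78, 5.66 and 6.51 CPM in the Control group. CIE rats lay below every Control rat in 5 of 6 cases, and the remaining one, CIE rat 6, lay above them all. The fit gave a difference of -0.52 on the log2 scale (SE 0.22, nominal p 0.0323, FDR 0.549), and without CIE rat 6 it was -0.75 with an FDR of 0.0747. Of 6 meningeal and choroid plexus markers tested, all 6 had log2 fold changes below 0 and 1 had a nominal p value below 0.05. Of 9 endothelial markers tested, 8 had log2 fold changes below 0, and 4 were lower and 1 was higher at a nominal p value below 0.05. Their median was -0.17 and 0 passed 5% FDR. Over all genes, 49.7% had log2 fold changes below 0, and 4.31% were lower and 4.0% higher at the nominal threshold. The part of either cell group in the *Slc6a13* value was not tested. *Aldh9a1*, an enzyme that can form GABA from aminobutyraldehyde, stood at -0.15 on the log2 scale (SE 0.055, nominal p 0.0167, FDR 0.450). *Aldh5a1*, which completes GABA breakdown after *Abat*, had a log2 fold change of -0.021 (nominal p 0.792).

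In glutamine and glutamate supply, 1 of 8 genes had a nominal p value below 0.05 (8.31% of all genes). *Slc38a3*, a glutamine transporter of astrocytes, averaged 51.3 ± 5.78 CPM in CIE rats and 59.3 ± 5.68 CPM in Control rats (SD, n = 6 each), or -0.21 on the log2 scale (SE 0.084, nominal p 0.0268, FDR 0.517), with 4 of 6 CIE rats below every Control rat. Among 8 partners of the GABA-B receptor, 1 had a nominal p value below 0.05 (8.31% of all genes). *Rgs7*, a regulator that speeds the shut-off of G proteins, averaged 79.1 ± 7.51 CPM in CIE rats and 68.7 ± 3.33 CPM in Control rats (SD, n = 6 each), or 0.20 on the log2 scale (SE 0.067, nominal p 0.0088, FDR 0.359), and 5 of 6 CIE rats lay above every Control rat. *Kctd12*, an auxiliary subunit of the receptor, had a log2 fold change of 0.095 (nominal p 0.358).

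Among 14 chloride transporters and their kinases, 1 had a nominal p value below 0.05 (8.31% of all genes). *Wnk2*, a kinase of the family that acts on NKCC1 and KCC2, averaged 196 ± 29.7 CPM in CIE rats and 168 ± 15.5 CPM in Control rats (SD, n = 6 each), or 0.22 on the log2 scale (SE 0.10, nominal p 0.0477, FDR 0.595). The kinases *Wnk1* (0.071, nominal p 0.483) and *Stk39* (-0.043, nominal p 0.571) had p values above the nominal threshold. Of 8 transcription factors of GABA neurons, 0 had a nominal p value below 0.05 and their log2 fold changes lay between -0.039 and 0.24.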

How the data were processed

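CeA RNA of 12 rats was sequenced after poly-A selection. The authors aligned with BWA to the Rnor_6.0 build, made gene totals with HTSeq and deposited them as counts without normalization. Each rat gave 1 library, so p-values measure the spread between these rats. The paper states that the rats were group housed, and no fit took the cage into account. The annotation and the strand and overlap settings are not given in the sources used here. The fits used edgeR 4.0.16 in R 4.3.3 (TMM, filterByExpr, two-sided quasi-likelihood F test over all 20944 genes, Benjamini-Hochberg FDR), with DESeq2 1.42.0 and limma 3.58.1 as alternatives. Correlations and ratios were computed in Python 3.11.15 with scipy 1.17.1. The study used DESeq2. Standard errors were taken as the fold change (log2) over √F. The scripts were tested on simulated data. Ratios were compared by exact permutation (smallest p 0.00216) and correlations with 100000 permutations, adjusted by family.

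The genes and lists were chosen with earlier results of these data known. Named genes are the 9, pathway genes at nominal p below 0.05, 5 fixed partners and the 3 most similar genes, and a few other genes of the lists are not reported here by name. Of 22 alternative fits, 2 were added after the values were seen. Symbols of 3 listed genes (Phf24, Tac2 and Slco1a4) were matched through synonyms and that of 1 (Ly6c1) was not matched.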

Additional observations from a re-analysis of the deposited data

Results flagged for a closer look

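*Slc12a2* in CIE rat 6 was at 255 CPM, far from the 141 to 177 CPM of the other CIE rats. The ratio of *Slc12a5* to *Slc12a2* in the same rat was 2.70, far from the 4.13 to 4.51 of the others. CIE rat 6 also had the lowest central amygdala marker score of the 12 rats (-0.76) and the highest oligodendrocyte score of its group (0.41). The ratio of *Abat* to *Gad1* in Control rat 8 was 0.390, far from the 0.291 to 0.319 of the other Control rats. In all, 28 sets of 6 values were examined for such a gap and 3 had one, where chance gives one in about 5% of sets. Part of the 3 rests on the same values.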

How the results depend on the processing

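At 5% FDR the counts of 0 of 9 and 0 of 44 genes held in all 22 alternative fits. At a nominal p value below 0.05 the 9 genes gave 3 calls in limma-voom, 3 with the oligodendrocyte score as a covariate, 1 with the striatal score, and 0 to 1 with 1 rat left out. The 44 genes gave 3 with library size only, 10 in limma-voom, 3 with the cortical score, 2 without the 3 rats of high striatal score, and 3 to 10 with 1 rat left out. No share of all genes called was counted for these fits, so the counts have no background beside them. Pairs of a gene and a score at 5% FDR went from 2 to 0 without the 2 rats farthest from the median score, where 10 rats remain, and to 4 with the group means removed. The ratio of *Slc32a1* to *Gad1* ranged from -0.21 to -0.13 (log2) with 1 rat left out and that of *Slc12a5* to *Slc12a2* from -0.016 to 0.16.

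Values near 0 changed sign. *Gad1* was at 0.0076 with DESeq2 size factors, 0.017 with library size only, 0.0012 with at least 10 counts in every rat, 0.0069 in DESeq2, 0.00012 in limma-voom, 0.043 with the cortical score and 0.0080 without the 3 rats, and -0.028 to 0.038 with 1 rat left out. *Slc12a5*, in the same order without the last 2, was at 0.0062, 0.013, 0.00042, 0.0055 and 0.025, at 0.037 with the oligodendrocyte score, and -0.021 to 0.035. With the oligodendrocyte score *Abat* was at 0.028, *Slc12a2* at 0.32, *Aldh5a1* at 0.088 and *Stk39* at 0.10. With the cortical score *Gad2* was at 0.024, *Aldh5a1* at 0.031 and *Kctd12* at -0.011. With the striatal score *Aldh5a1* was at 0.019. With 1 rat left out the ranges were -0.10 to 0.0061 for *Gad2*, -0.17 to 0.044 for *Slc12a2*, -0.067 to 0.021 for *Aldh5a1*, -0.081 to 0.0036 for *Stk39* and -0.0040 to 0.14 for *Wnk1*. The cause of these changes was not tested. No paired analysis was possible because the rat numbers of the groups do not overlap.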

Other observations

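Markers of CeA neurons, which are largely GABA neurons, were read in the same libraries. Of 10, 3 were lower in the CIE group at a nominal p value below 0.05 and 0 were higher, against 4.31% and 4.0% of all genes, and 0 passed 5% FDR in edgeR. The 3 were the peptide genes *Crh* (log2 fold change -0.45, FDR 0.472), *Nts* (-0.46, FDR 0.584) and *Tac2* (listed as *Tac3*, -0.37, FDR 0.542). Of the 10 log2 fold changes, 7 were below 0 (49.7% of all genes) and the rest above. They ran from -0.46 to 0.25, with a median of -0.10. *Prkcd*, which marks a large class of lateral CeA neurons, had a log2 fold change of -0.14 (nominal p 0.386). The general neuron markers had a median log2 fold change of 0.029, with 1 of 8 lower at a nominal p value below 0.05.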
